A study of Arabidopsis thaliana with 4 samples.

Results

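The response of wild-type Arabidopsis thaliana, ecotype Columbia-0 (Col-0), to aluminium (Al) was followed on the 2 arrays that carry the wild type, of 4 arrays in the series. Each of these arrays set Al-treated plants (dye Cy5) against untreated plants (Cy3), so that every probe gave 1 ratio of Al-treated over untreated plants per replicate. Plants grown in soil for about 3 weeks were placed in aluminium chloride at pH 4.2 for 2 d, and the labels give its concentration as 300 mM whereas the methods give 300 μM. The labels put the untreated plants at day 0 in replicate 1 and at day 2 in replicate 2, whereas the study's text describes controls kept without Al for 2 d at pH 4.2 and names no day 0 for these arrays. If the labels hold, Al cannot be told apart in replicate 1 from time, from the move into solution or from pH 4.2. Both replicates were separate pools of plants. The labels name whole plants as the source and shoots at the labelling step. The other 2 arrays compare Al-treated with untreated plants of 1 homozygous Col-0 line that expresses AvSAMS1, an S-adenosylmethionine synthetase of the grass Andropogon virginicus, under a constitutive viral promoter, and they enter here only through the estimate of spread in the test and through a short comparison. A probe was kept where both dyes of both Col-0 arrays stood well above background, which held for 28673 of 43603 probes, and each locus was then read from its brightest such probe, which gave 18266 of 25455 loci. Results below are log2 ratios of Al-treated over untreated plants, replicate 1 first, and a value of 1 is a 2-fold difference.

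Aluminium dissolves in acid soil as a cation that binds cell walls and membranes and stops root growth. In Arabidopsis the zinc finger factor STOP1 drives the best known defence, the export of malate (through ALMT1) and citrate (through a MATE transporter), which bind Al outside the root, while ALS3, ALS1 and STAR1 move Al within the plant and away from sensitive cells. Low pH on its own also acts on potassium uptake, proton pumps and the availability of phosphate, and in these arrays pH 4.2 was shared by Al-treated plants and controls as the study's text describes them. If the untreated plants of replicate 1 were taken at day 0, as labelled, effects of pH 4.2 and of Al cannot be told apart there. Al stress is further known for oxidative stress, and for the induction of detoxifying enzymes such as glutathione S-transferases.

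The arrays agreed only in part. Across the 28673 probes the log2 ratios of both replicates had a Pearson correlation of 0.44, a description across genes that are not independent replicates, and 64.6% of probes had the same sign on both arrays. The spread of the ratios was similar (SD 0.81 on replicate 1 and 0.73 on replicate 2), and their median over loci was 0.05 and -0.02. The dyes were never exchanged, so any difference between the dyes remains in each ratio. Ratios come from bulk tissue, in which fewer cells of a type and less RNA per cell cannot be told apart.

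Past 2-fold on both arrays, 513 loci were induced (2.81% of all loci measured), 385 were repressed (2.11%) and 166 were past 2-fold in opposite directions (0.909%). By probes the same rule gave 694 induced (2.42%), 664 repressed (2.32%) and 233 opposite (0.813%). The 513 induced loci were 33.7% of the 1522 loci induced past 2-fold on replicate 1 and 42.4% of the 1211 on replicate 2. The 385 repressed loci were 24% of the 1637 repressed past 2-fold on replicate 1 and 38.7% of the 996 on replicate 2. Larger steps left mostly induced loci, with 126 induced, 27 repressed and 17 opposite at 4-fold, and 33, 3 and 4 at 8-fold. At 16-fold on both arrays 9 loci were induced and none was repressed, and 3 were induced at 32-fold. Where a locus had several measured probes, all of them were past 2-fold on both arrays at 80 of 133 induced and 61 of 88 repressed loci.

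**Figure D1:**
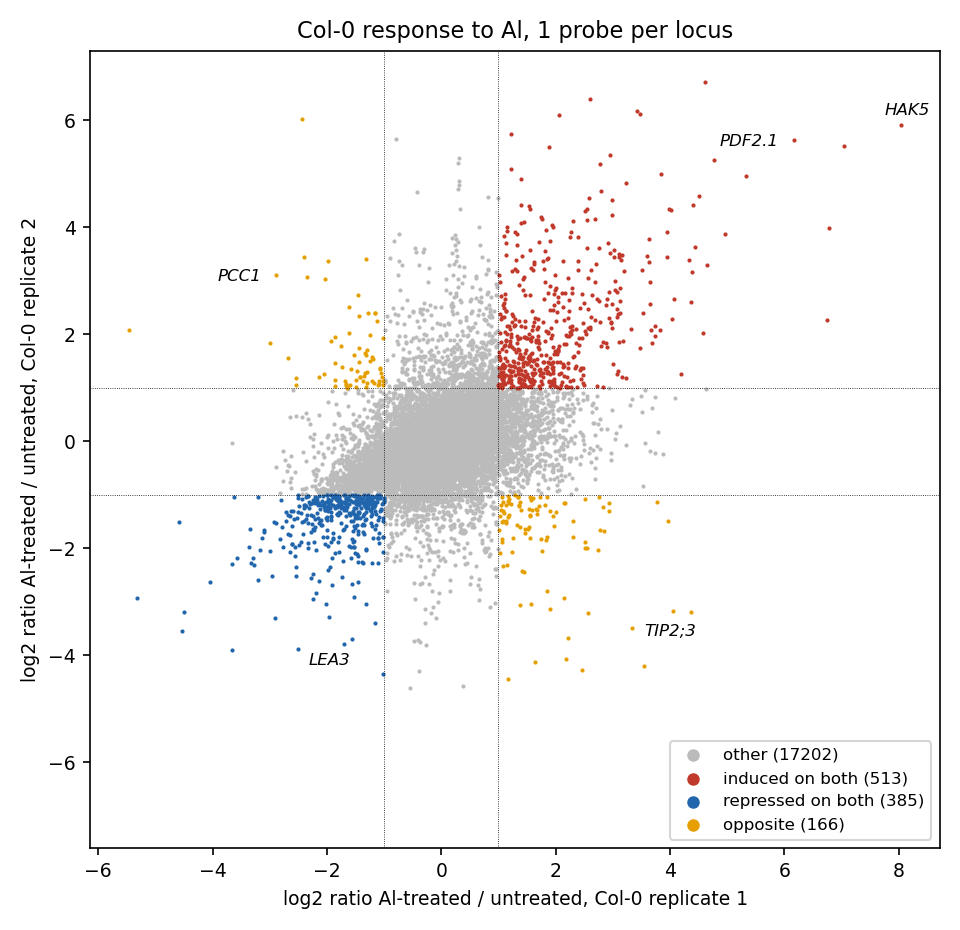
Each point is 1 locus, with the log2 ratio of Al-treated over untreated Col-0 on replicate 1 along the horizontal axis and on replicate 2 along the vertical axis, and dotted lines mark 2-fold. The 513 loci induced on both arrays lie at the upper right, the 385 repressed on both at the lower left, and the 166 opposite loci in the other corners.

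No probe passed limma, the reported test over replicates. In limma, fitted over all 4 arrays and 34738 probes, 0 probes (0.0%) had a Benjamini-Hochberg adjusted p under 0.05, the smallest adjusted p was 0.655, and 2618 probes (7.54%) had an unadjusted p under 0.05, 1080 of them higher and 1538 lower in Al-treated plants. Of the loci past 2-fold on both arrays, 277 of 513 induced and 283 of 385 repressed were among those with an unadjusted limma p under 0.05. The 2-fold rule and the limma estimate rest on the same Col-0 ratios, so this overlap is no separate evidence. With the replicate number as a block, limma still gave 0 adjusted calls (smallest adjusted p 0.344), with 4102 probes at an unadjusted p under 0.05. The scanner software's own p-value, an error model of the spots of 1 array that knows nothing of replicates, was under 0.05 on both arrays for all 513 and all 385 loci. Induced and repressed below therefore mean past 2-fold on both arrays, a rule of size and agreement, and not a test.

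Tissue markers differed between replicates as well as between treated and untreated plants. Of 18 root markers, 8 were well above background in untreated and 8 in Al-treated plants of replicate 1, against 18 and 15 in replicate 2, and their median signal was 20.3, 23.3, 253 and 99.1 in the same order. Their summed signal was 18551, 95972, 97006 and 74421, most of it from PYK10, a root-abundant myrosinase of endoplasmic reticulum bodies, at 15457 in untreated and 92437 in Al-treated plants on replicate 1, and 80266 and 68670 on replicate 2. CASP1, which builds the Casparian strip of the root endodermis, had 43.4 in untreated and 36.1 in Al-treated plants on replicate 1, and 2845 and 204 on replicate 2. All 10 leaf markers were bright in every channel, with medians of 330093, 149352, 427291 and 450079, and all of them also belong to the light-harvesting and Rubisco list given later. Of 7 flower markers 3, 7, 7 and 7 were above background, with medians of 35.2, 349, 198 and 102. Of the 7 root markers measured in both dyes on both arrays none was past 2-fold the same way, and 1, the tonoplast aquaporin TIP2;3, was opposite (3.33 and -3.49). The part of these tissue differences in the results below was not tested.

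**Figure D2:**
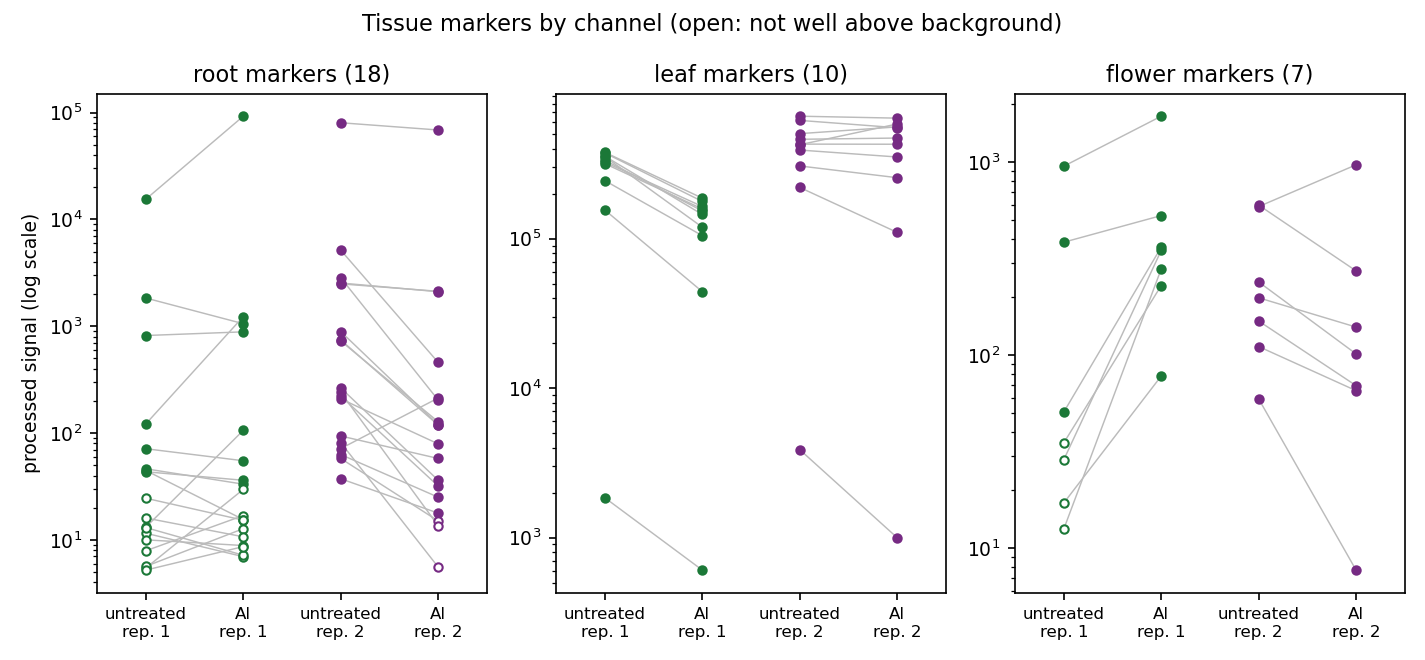
Processed signal on a log axis of each root, leaf and flower marker in untreated and Al-treated plants of both replicates, with lines joining the dyes of 1 array and open points not well above background. Root markers reached 18 of 18 above background only in untreated plants of replicate 2, while all 10 leaf markers were bright in every channel.

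Ranked by the smaller of both ratios, the leading induced locus was HAK5, the high-affinity potassium uptake transporter of the root that potassium starvation induces. Its signal was 249 in untreated and 65879 in Al-treated plants on replicate 1, and 680 and 40773 on replicate 2. The log2 ratio was 8.05 on replicate 1 and 5.91 on replicate 2 (6.98 ± 1.51, SD, n = 2), or 264-fold and 59.9-fold, with an adjusted p of 0.655 in limma. Next came PDF2.1, a small cysteine-rich peptide of the defensin family, with signals of 63.2 in untreated and 4573 in Al-treated plants on replicate 1, and 620 and 30801 on replicate 2. Its ratio was 6.18 on replicate 1 and 5.63 on replicate 2 (5.91 ± 0.38, SD, n = 2), adjusted p 0.655 in limma. For both genes every Al-treated signal lay above every untreated one, across arrays as well as within them. Both lead a ranking made from these same values, so this is no separate evidence.

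Several of the other leading induced loci were close to equal on both arrays. SAUR55, a member of the small auxin-induced SAUR family, stood at 4.51 and 4.59 (4.55 ± 0.06, SD, n = 2). PDLP1, a receptor-like protein of the plasmodesmata, the channels between plant cells, stood at 4.02 and 4.32 (4.17 ± 0.21, SD, n = 2). SULTR3;5, of the sulfate transporter family, had signals of 199 in untreated and 3159 in Al-treated plants on replicate 1, and 282 and 5708 on replicate 2 and ratios of 3.99 and 4.34 (4.17 ± 0.25, SD, n = 2). MFT, a relative of the flowering regulator FT known for its part in seed germination, stood at 3.63 and 3.79 (3.71 ± 0.11, SD, n = 2). Loci that the array and the annotation give without a symbol filled the rest of the 15 leading places. At1g51830 reached 7.05 and 5.52, At2g18480 5.34 and 4.96, At4g09300 4.77 and 5.25 and At5g38200 4.62 and 6.72. At4g30670 had 6.78 and 3.98, At1g73120 4.97 and 3.87 and At2g41380 3.84 and 4.99. The neighbours At3g22235 and At3g22240 stood at 4.41 and 4.42 and at 3.94 and 3.91, but a second, dimmer probe of At3g22235 read -3.0 and 2.68 and disagreed with the first on replicate 1. Replicate spread was thus small at SAUR55 and the At3g22240 locus and wide at At4g30670.

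The leading repressed loci were smaller in size and mostly carried no symbol. At5g64100 stood at -3.66 and -3.91 (-3.78 ± 0.18, SD, n = 2), At5g48430 at -4.54 and -3.55 (-4.04 ± 0.70, SD, n = 2) and At2g42060 at -4.50 and -3.18 (-3.84 ± 0.93, SD, n = 2). These were the 3 loci past 8-fold down on both arrays. At5g40590 (-5.32 and -2.93), At2g43610 (-2.91 and -3.30), At2g27420 (-4.04 and -2.64), At5g54585 (-3.21 and -2.60), At1g62510 (-2.95 and -2.52), At2g34060 (-2.54 and -2.52), At2g44370 (-3.28 and -2.31) and At5g44575 (-2.27 and -2.56) followed. LHCB2.3, an antenna protein that binds chlorophyll at photosystem II, had 50573 in untreated and 8720 in Al-treated plants on replicate 1, and 50741 and 9927 on replicate 2. Its ratio was -2.54 on replicate 1 and -2.35 on replicate 2 (-2.44 ± 0.13, SD, n = 2), and a second probe read -2.0 and -2.22. GPX7, a chloroplast glutathione peroxidase, stood at -3.32 and -2.27 (-2.80 ± 0.75, SD, n = 2). CRK21, a cysteine-rich receptor-like kinase, stood at -3.65 and -2.30 (-2.98 ± 0.96, SD, n = 2). LEA3, of the late embryogenesis abundant proteins, stood at -2.51 and -3.88 (-3.19 ± 0.97, SD, n = 2).

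**Figure D3:**
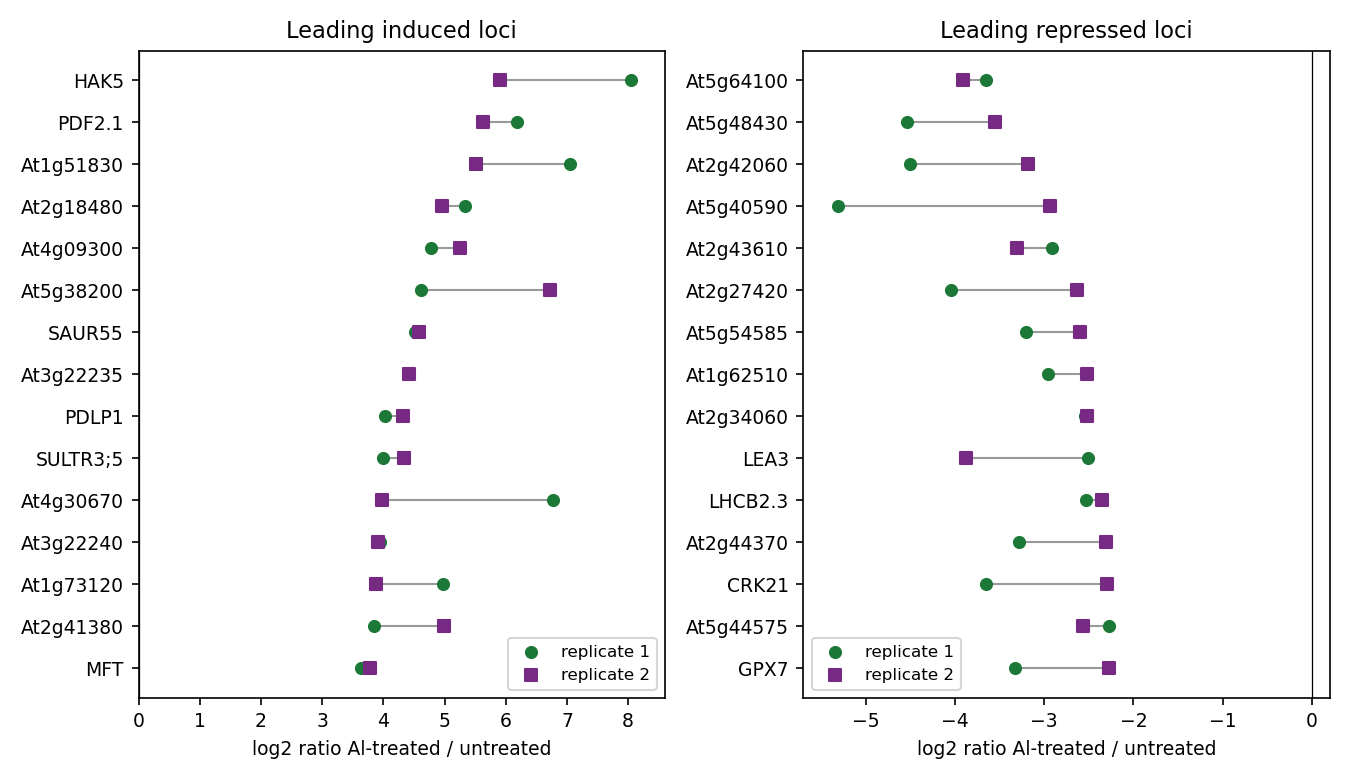
Log2 ratio of Al-treated over untreated Col-0 for the 15 leading induced (left) and 15 leading repressed loci (right), with circles for replicate 1 and squares for replicate 2, ordered by the smaller of both sizes. HAK5 leads at 8.05 and 5.91, and the leading repressed locus At5g64100 stands at -3.66 and -3.91.

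Genes of the Al resistance pathway were higher in Al-treated plants in most cases, with 4 of 16 measured members (25%) induced and none repressed, against 2.81% and 2.11% of all loci. Their median was 1.09, against 0.02 for all loci, and 14 of 16 were higher on both arrays. The share of all loci higher, or lower, on both arrays was not counted, while 64.6% of probes had the same sign in either direction. The shares of 2.81% induced and 2.11% repressed are the background for every list and family below. Where only 1 or 2 members of a list were called, the values describe those members and not the list. Among the exporters, At1g51340, entered in the list as the citrate exporter MATE, stood at 3.54 on replicate 1 and 2.4 on replicate 2 (2.97 ± 0.80, SD, n = 2). ALMT1, the malate channel, stood at 0.73 on replicate 1 and 2.38 on replicate 2 (1.56 ± 1.17, SD, n = 2) and so passed 2-fold on replicate 2 only. ALS3, which moves Al from sensitive tissue, stood at 2.56 on replicate 1 and 2.12 on replicate 2 (2.34 ± 0.32, SD, n = 2), and the related internal transporters ALS1 (0.18 and 0.41) and STAR1 (0.55 and -0.04) did not pass. NIP1;2, which carries Al-malate into cells, was the 1 member lower on both arrays, at -0.60 and -0.40.

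Regulators and further targets of this pathway were measured as well. STOP1 itself, whose activity is known to be set largely after transcription, stood at 0.05 on replicate 1 and 0.27 on replicate 2 (0.16 ± 0.16, SD, n = 2). STOP2, its close homologue, did not meet the background rule. PGIP1, an inhibitor of fungal polygalacturonases and a known STOP1 target, stood at 2.4 on replicate 1 and 3.82 on replicate 2 (3.11 ± 1.00, SD, n = 2), and its tandem neighbour PGIP2 at 1.34 and 0.58. GDH2, a glutamate dehydrogenase, stood at 1.55 on replicate 1 and 2.73 on replicate 2 (2.14 ± 0.84, SD, n = 2). CAMTA2, a calmodulin-binding activator of ALMT1, stood at 0.97 and 1.34 and CIPK23, a kinase that controls potassium and nitrate uptake, at 1.2 and 0.89. WRKY46, a repressor of ALMT1, and WAK1, a wall-associated kinase, differed mainly on replicate 2 (0.01 and 1.46, and 0.34 and 2.64).

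HAK5 was 1 of 2 induced members, with KAT2, among 21 measured potassium transport genes, none of which was repressed, and their median was 0.15. KAT2, an inward channel known from guard cells, stood at 3.23 on replicate 1 and 1.18 on replicate 2 (2.2 ± 1.45, SD, n = 2), and its partner KAT1 at 0.93 and 0.96. KUP10, of the same family as HAK5, stood at 0.96 and 1.78. GORK, the outward channel of guard cells, stood at 1.79 and 0.03, and SKOR, which loads potassium into the root xylem, at -0.05 and -3.01. Each of this last pair was past 2-fold on 1 array only. Normexp with loess in place of the deposited normalization left 1 member induced.

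The phosphate starvation list had 6 of 19 measured members induced and 1 repressed, with a median of 1.02, and 14 of 19 were higher on both arrays. Among the scavenging enzymes, PS2, a phosphatase, stood at 3.13 on replicate 1 and 2.61 on replicate 2 (2.87 ± 0.37, SD, n = 2), RNS1, a secreted ribonuclease, at 2.26 on replicate 1 and 2.05 on replicate 2 (2.15 ± 0.15, SD, n = 2), and the acid phosphatase PAP17 at 2.18 on replicate 1 and 1.01 on replicate 2 (1.59 ± 0.83, SD, n = 2). AT4, a non-coding RNA that sequesters the microRNA of the phosphate signal, stood at 2.42 and 1.34 (1.88 ± 0.76, SD, n = 2). PEPC1, a phosphatase that splits phosphoethanolamine and phosphocholine, stood at 1.13 and 1.69 (1.41 ± 0.40, SD, n = 2). The uptake transporters were split, with PHT1;4 at 1.04 on replicate 1 and 1.25 on replicate 2 (1.14 ± 0.14, SD, n = 2), PHT1;1 at -1.36 on replicate 1 and -2.27 on replicate 2 (-1.82 ± 0.65, SD, n = 2) and PHT1;2 at -0.82 on replicate 1 and -2.24 on replicate 2 (-1.53 ± 1.00, SD, n = 2). PHT1;1 and PHT1;2 are near-identical neighbours whose probes may share signal. SPX1, a phosphate sensor, stood at 2.55 and 0.84 and fell short of 2-fold on replicate 2.

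**Figure D4:**
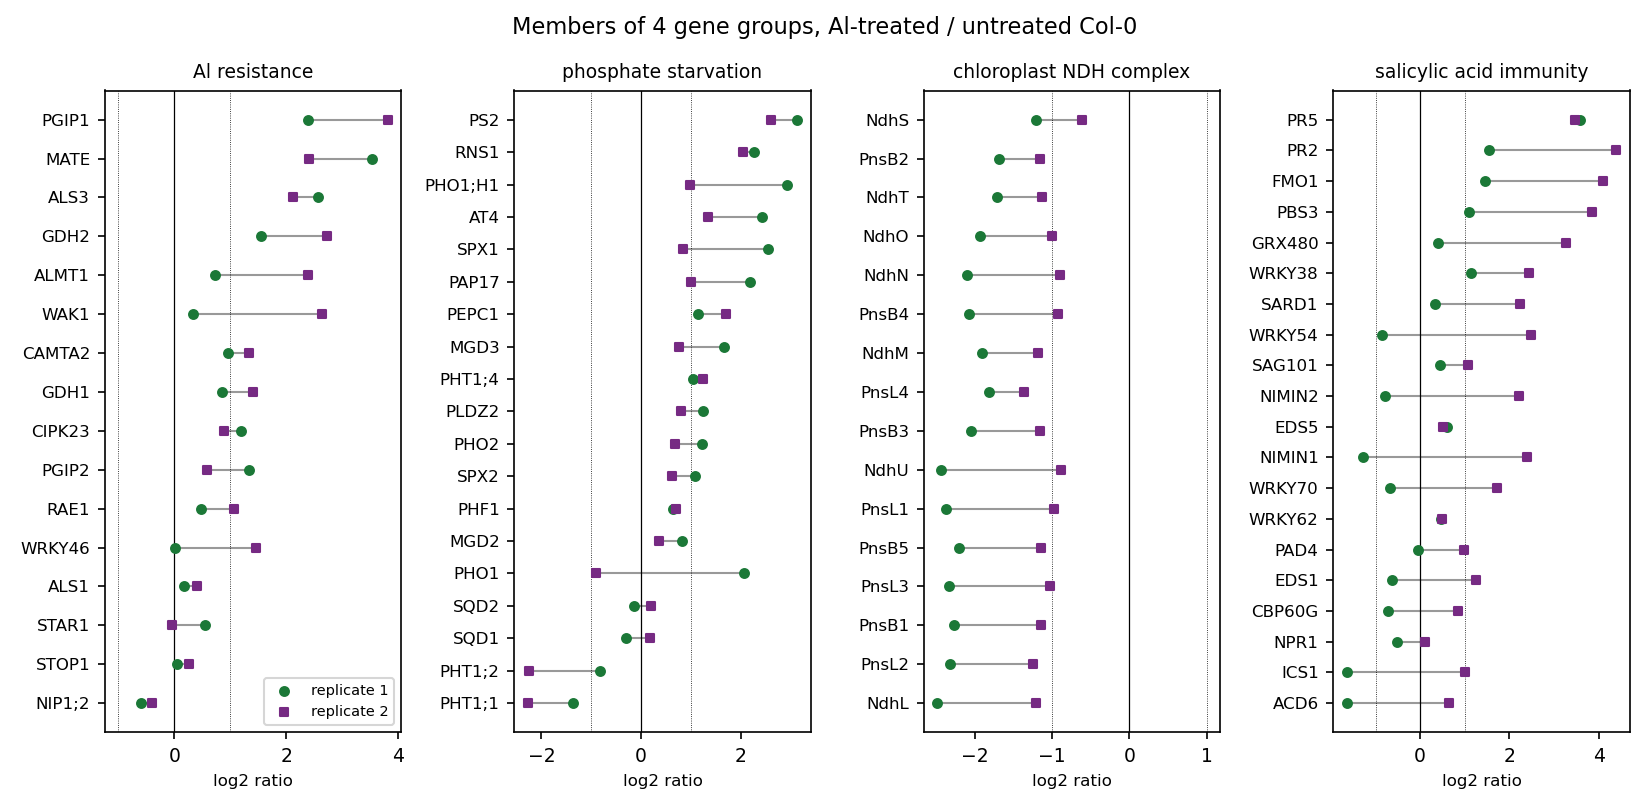
Log2 ratio of each measured member of 4 gene groups, with circles for replicate 1, squares for replicate 2 and dotted lines at 2-fold. Salicylic acid members spread far apart between replicates, whereas all 16 chloroplast NDH members lie below 0 on both.

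Single proton pumps and metal handling genes are given next, chosen after their values were seen. Their families were not counted, so the values describe these genes only. The plasma membrane proton pump HA2 was induced at 2.26 on replicate 1 and 2.13 on replicate 2 (2.19 ± 0.09, SD, n = 2), and its homologue HA7 at 4.57 and 2.02 (3.29 ± 1.81, SD, n = 2). NRAMP3, which releases iron and manganese from the vacuole, stood at 3.13 and 2.4 (2.77 ± 0.52, SD, n = 2). The metallothioneins MT1A and MT2A, small cysteine-rich metal-binding proteins, stood at 2.24 and 1.98 (2.11 ± 0.19, SD, n = 2) and at 1.29 and 1.39 (1.34 ± 0.07, SD, n = 2). Enzymes against reactive oxygen went both ways. The catalase CAT3 stood at 1.54 on replicate 1 and 1.51 on replicate 2 (1.52 ± 0.02, SD, n = 2) with 9 probes, and the copper-zinc superoxide dismutase CSD1 at 1.41 and 1.07 (1.24 ± 0.24, SD, n = 2). Repressed were the catalase CAT2 at -1.32 and -1.31 and the glutathione peroxidase GPX1 at -1.69 and -1.27, besides GPX7 given above.

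Glutathione S-transferases, which join glutathione to reactive and foreign compounds, had 12 of 34 measured members induced and 1 repressed, with a median of 0.99. GSTU3 stood at 3.48 on replicate 1 and 6.11 on replicate 2 (4.79 ± 1.86, SD, n = 2), GSTU4 at 3.12 on replicate 1 and 3.49 on replicate 2 (3.31 ± 0.27, SD, n = 2), GSTU8 at 3.65 on replicate 1 and 2.57 on replicate 2 (3.11 ± 0.77, SD, n = 2) and GSTU1 at 4.04 on replicate 1 and 2.28 on replicate 2 (3.16 ± 1.24, SD, n = 2). GSTU18 was the repressed member (-1.11 and -1.05), a call absent after normexp with loess or with median centring. GSTF14 was opposite (2.46 and -4.27). Within this family several induced members are tandem copies of similar sequence, GSTU2 to GSTU4 (1.82 and 2.97 for GSTU2) and GSTU24 to GSTU26, so that their probes may share signal.

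UGT73 glycosyltransferases attach glucose to plant hormones, flavonoids and toxins, and this family was picked after its values were seen. Of 9 measured members 6 were induced, none was repressed and the median was 1.96. UGT73B4 stood at 2.31 on replicate 1 and 4.12 on replicate 2 (3.21 ± 1.28, SD, n = 2), UGT73C7 at 2.61 on replicate 1 and 3.2 on replicate 2 (2.91 ± 0.42, SD, n = 2), UGT73D1 at 1.4 and 3.46, UGT73B5 at 1.45 and 1.95, and the neighbours UGT73B3 and UGT73B2 at 1.93 and 1.99 and at 1.92 and 2.12. All 6 are members of 3 adjacent pairs. In the list of mitochondrial retrograde and xenobiotic genes 2 of 14 were induced, with a median of 0.63. They were UGT73B5 and ABCG40, a pump for abscisic acid and terpenes of the plasma membrane, which stood at 2.07 on replicate 1 and 6.10 on replicate 2 (4.08 ± 2.85, SD, n = 2). AOX1D, an alternative oxidase of the mitochondrial electron chain, stood at 0.95 and 3.17. Of 31 measured ABCG transporters 4 were induced and none repressed, among them ABCG37 at 2.88 and 2.55 (2.72 ± 0.23, SD, n = 2) and ABCG31 at 3.73 and 2.16 (2.95 ± 1.11, SD, n = 2).

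Photosynthesis genes were lower in Al-treated plants, and more so on replicate 1, the array whose untreated plants carry the label day 0. Of 31 members of the light-harvesting and Rubisco list none was induced, 4 were repressed and 25 were lower on both arrays, with medians of -1.25 on replicate 1 and -0.26 on replicate 2. Besides LHCB2.3 the repressed members were LHCB1.4 (-3.37 and -1.97, mean -2.67 ± 0.99 SD, n = 2), LHCB2.1 (-1.61 and -1.96, mean -1.78 ± 0.25 SD, n = 2) and LHCB4.2 (-1.76 and -1.18, mean -1.47 ± 0.41 SD, n = 2), all antenna proteins. LHCB1.4 (At2g34430) had 2 measured probes and was read from the brighter of them. The paper lists a weaker repression of this locus in the wild type, and the cause of the difference was not tested. LHCB3 (-1.81 and -1.0) and PSBO2 (-1.45 and -1.0), a subunit of the oxygen-evolving complex, fell just short of 2-fold on replicate 2. RBCS1A, the main small subunit of the carbon-fixing enzyme Rubisco, stood at -1.29 on replicate 1 and 0.46 on replicate 2 (-0.42 ± 1.24, SD, n = 2), so that the arrays differed in sign, as they did for RBCS1B (-1.13 and 0.15) and RBCS3B (-0.98 and 0.03). The 10 leaf markers were read from the same probes and do not weigh on the list independently.

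Genes for chlorophyll synthesis were lower on both arrays in all 10 members, with 3 repressed, none induced and a median of -1.02. GUN4 and CHLH, both at the step that puts magnesium into the pigment, stood at -1.80 and -1.12 (-1.46 ± 0.48, SD, n = 2) and at -1.65 and -1.17 (-1.41 ± 0.34, SD, n = 2). CHLM, the methyltransferase of the following step, stood at -1.86 and -1.05 (-1.46 ± 0.58, SD, n = 2). CRD1, the cyclase that follows it, stood at -1.98 and -0.93 and fell just short on replicate 2.

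The chloroplast NDH complex, which returns electrons around photosystem I, held the largest share of repressed members among the groups described, in a family chosen after its values were seen. Of 16 measured members 11 were repressed, all 16 were lower on both arrays, and the median was -1.60 (-2.09 on replicate 1 and -1.14 on replicate 2). NdhL stood at -2.49 on replicate 1 and -1.21 on replicate 2 (-1.85 ± 0.90, SD, n = 2), PnsL4 at -1.82 on replicate 1 and -1.37 on replicate 2 (-1.59 ± 0.32, SD, n = 2), PnsL2 at -2.32 and -1.25, PnsB3 at -2.05 and -1.16 and NdhM at -1.91 and -1.18. Of 12 photosystem I subunits, chosen likewise, 5 were repressed, all 12 were lower on both arrays and the median was -1.20. PSAH2 stood at -1.52 and -1.25 (-1.39 ± 0.19, SD, n = 2) and PSAD-2 at -1.54 and -1.14 (-1.34 ± 0.29, SD, n = 2). On replicate 2 most of these values lay close to 2-fold, and the counts changed with the scaling. With median centring after normexp, which moved the median of all loci to 0.30, no member of the chlorophyll, NDH or photosystem I groups was past 2-fold on both arrays, and their medians were -0.74, -1.20 and -0.97. Normexp with loess left 3, 9 and 5.

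The BBX proteins, zinc finger factors that act in light signalling and flowering, were lower as well (5 of 24 repressed, none induced, median -0.72, a family chosen after its values were seen). COL2, related to the flowering regulator CONSTANS, stood at -1.91 on replicate 1 and -2.68 on replicate 2 (-2.29 ± 0.55, SD, n = 2), BBX16 at -2.90 on replicate 1 and -1.53 on replicate 2 (-2.22 ± 0.97, SD, n = 2), BZS1 at -1.90 and -1.71 and BBX14 at -1.37 and -1.55. Of 19 clock genes 2 were repressed and none induced. They were the morning factors CCA1 (-1.45 and -1.67, mean -1.56 ± 0.15 SD, n = 2) and RVE1 (-1.22 and -1.18, mean -1.20 ± 0.03 SD, n = 2), while LHY, the partner of CCA1, stood at -0.67 and -0.70. The hour at which plants were taken is not given in the sources used here. MYBL2, a repressor of anthocyanin synthesis, was the 1 repressed member of 19 flavonoid and phenylpropanoid genes (-1.89 and -1.81, mean -1.85 ± 0.06 SD, n = 2), and none was induced.

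**Figure D5:**
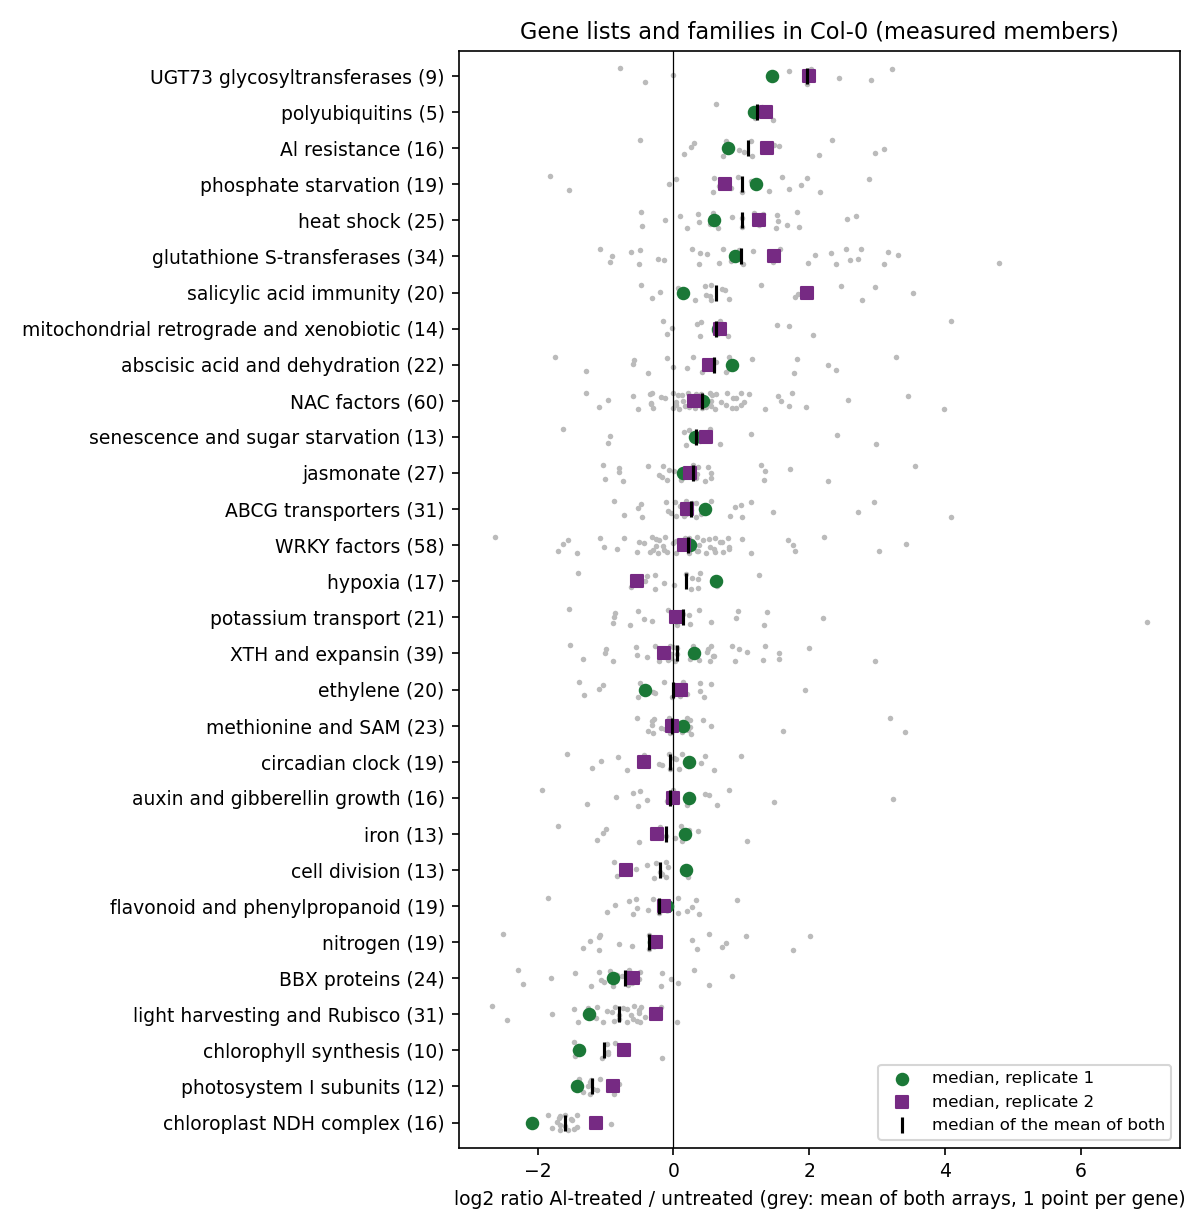
Log2 ratios of 22 gene lists and 8 families in Col-0, with a grey point for the mean of both arrays of each measured gene, coloured symbols for the median on each replicate and a bar for the median of the means, and the number of measured genes in brackets. The chloroplast NDH complex stands lowest at -1.60 and UGT73 highest at 1.96. Several medians lie far apart between replicates, among them those of salicylic acid, hypoxia, light harvesting and Rubisco, the NDH complex and cell division.

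Defence genes of the salicylic acid pathway were induced in 5 of 20 measured members, with none repressed and 2 opposite, and their median was 0.14 on replicate 1 and 1.97 on replicate 2. PR5, a thaumatin-like antifungal protein, was alike on both arrays at 3.59 on replicate 1 and 3.47 on replicate 2 (3.53 ± 0.09, SD, n = 2), with signals of 318 in untreated and 3840 in Al-treated plants on replicate 1, and 1755 and 19423 on replicate 2. PR2, a glucanase, stood at 1.54 on replicate 1 and 4.4 on replicate 2 (2.97 ± 2.02, SD, n = 2). FMO1, which makes the mobile immune signal N-hydroxypipecolic acid, stood at 1.45 and 4.1 (2.77 ± 1.87, SD, n = 2). PBS3, an enzyme of salicylic acid synthesis, stood at 1.09 and 3.84 (2.47 ± 1.95, SD, n = 2) and WRKY38 at 1.13 and 2.44 (1.79 ± 0.92, SD, n = 2). ICS1, the first enzyme of that synthesis, was opposite (-1.64 and 1.00), as was NIMIN1, a partner of the receptor NPR1 (-1.29 and 2.39). Apart from PR5 the induced members were all larger on replicate 2.

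Of the other hormone lists, abscisic acid and dehydration genes had 5 of 22 induced and 1 repressed, with a median of 0.59. RD20, a caleosin of lipid droplets, stood at 3.1 on replicate 1 and 3.44 on replicate 2 (3.27 ± 0.24, SD, n = 2), HAI1 and ABI2, phosphatases that damp the abscisic acid signal, at 1.90 and 2.90 (2.4 ± 0.71, SD, n = 2) and at 2.03 and 1.62 (1.82 ± 0.29, SD, n = 2), the dehydrin LTI30 at 2.79 and 1.77 (2.28 ± 0.72, SD, n = 2) and NCED3, the rate-limiting enzyme of abscisic acid synthesis, at 2.16 and 1.4 (1.78 ± 0.53, SD, n = 2). COR15B, a cold-protective protein of the chloroplast, was repressed (-2.50 and -1.0). Of 27 jasmonate genes 2 were induced, NATA1, which acetylates ornithine, at 2.58 on replicate 1 and 4.54 on replicate 2 (3.56 ± 1.39, SD, n = 2) and VSP1, a vegetative storage protein, at 1.58 and 1.02 (1.3 ± 0.40, SD, n = 2). Of 20 ethylene genes none was past 2-fold the same way on both arrays and 2 were opposite. In the auxin and gibberellin list GH3.3, which joins auxin to amino acids, was induced (2.95 and 3.53, mean 3.24 ± 0.41 SD, n = 2) and GASA6, a gibberellin-regulated peptide, was repressed (-2.24 and -1.64, mean -1.94 ± 0.43 SD, n = 2), of 16 measured.

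Transcription factor families were chosen after their values were seen. Of 60 measured NAC factors 7 were induced and none was repressed, among them NAC042, known as JUNGBRUNNEN, at 2.78 and 5.19 (3.98 ± 1.70, SD, n = 2), NAC003 at 2.56 and 4.34 (3.45 ± 1.26, SD, n = 2) and NAC032 at 1.47 and 1.70 (1.59 ± 0.16, SD, n = 2). Of 58 WRKY factors 5 were induced and 5 repressed. WRKY31 (2.69 and 4.15) and WRKY50 (2.26 and 3.81) led the induced and WRKY9 (-1.56 and -3.69) the repressed members. Normexp with loess left 3 induced and 1 repressed WRKY factors.

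Heat shock genes had 4 of 25 measured members induced and none repressed, with a median of 1.01. BAG6, a co-chaperone, stood at 1.71 and 1.33 (1.52 ± 0.27, SD, n = 2), MBF1C, a coactivator of the heat response, at 1.43 and 1.58 (1.51 ± 0.10, SD, n = 2), HSP101, which frees proteins from aggregates, at 1.22 and 1.4 (1.31 ± 0.12, SD, n = 2) and the small heat shock protein HSP17.8 at 1.08 and 2.55 (1.81 ± 1.04, SD, n = 2). HSP17.4 was high on replicate 2 only (0.31 and 4.79). Of the 5 polyubiquitin genes, from which ubiquitin for protein breakdown is made, 4 were induced and all were higher on both arrays, at 1.38 and 1.56 for UBQ10, 1.19 and 1.42 for UBQ14, 1.44 and 1.02 for UBQ3 and 1.05 and 1.36 for UBQ11. Polyubiquitins share their repeats, so a probe may read several of them, and loess left 2 induced. In the senescence and sugar starvation list SAG13 (1.94 and 4.04) and the glucosidase DIN2 (1.99 and 2.82) were induced and WRKY53 was repressed (-2.20 and -1.04), of 13 measured.

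Nutrient lists other than phosphate were mixed or thinly measured. Of 19 nitrogen genes 2 were induced and 2 repressed. The nitrate transporter and sensor NRT1.1 stood at 2.13 and 1.39 (1.76 ± 0.53, SD, n = 2) and the nitrate reductase NIA1 at 1.03 and 2.98 (2.01 ± 1.38, SD, n = 2), whereas the ammonium transporter AMT1;2 stood at -2.19 and -2.84 (-2.51 ± 0.46, SD, n = 2) and NRT3.1, a partner of high-affinity nitrate transporters, at -1.50 and -1.17 (-1.33 ± 0.23, SD, n = 2). NRT1.5, which loads nitrate into the xylem, was opposite (2.75 and -2.04). Of 26 iron genes only 13 were measured and none was past 2-fold the same way on both arrays. The list was well above background at 14 and 17 genes in untreated and Al-treated plants of replicate 1 and at 25 and 21 in replicate 2, with median signals of 54.5, 97.7, 2375 and 738, and so differed between libraries as the root markers did. FRO2, the ferric reductase of the root surface, stood at -0.46 and -2.95, and the iron store FER1 at 1.39 and 0.79.

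Of 17 hypoxia genes none was induced and 1 was repressed, the ethylene response factor HRE1 (-1.21 and -1.59, mean -1.40 ± 0.27 SD, n = 2), and the list's median was 0.63 on replicate 1 and -0.54 on replicate 2. Cell division genes lay similarly apart, at 0.19 and -0.70, with none of 13 past 2-fold on both arrays. Of 39 measured XTH and expansin genes of the cell wall 2 were induced, against 2.81% of all loci, none was repressed and 2 were opposite. The induced members were XTH10 at 1.74 and 4.19 (2.96 ± 1.73, SD, n = 2) and XTH30 at 1.66 and 1.45 (1.55 ± 0.15, SD, n = 2), and the opposite ones XTH15 (2.84 and -1.68) and EXPA15 (1.19 and -1.08). XTH29 (1.23 and 2.39) and EXLB1 (3.68 and 1.84), which the list did not hold, were induced as well. In the methionine and S-adenosylmethionine list, where the study's interest lay, 2 of 23 were induced and none was repressed, with a median of -0.02. They were ADC2, the arginine decarboxylase that starts polyamine synthesis, at 2.76 on replicate 1 and 3.62 on replicate 2 (3.19 ± 0.61, SD, n = 2) and PXMT1, a methyltransferase that uses S-adenosylmethionine, at 2.51 on replicate 1 and 4.31 on replicate 2 (3.41 ± 1.27, SD, n = 2). The plant's own S-adenosylmethionine synthetases stayed within 2-fold, SAM1 at -0.38 and 0.29, SAM2 at -0.33 and -0.32, MAT3 at 0.57 and -0.08 and MTO3 at 0.45 and -0.03.

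Among the 166 loci past 2-fold in opposite directions, 97 were higher on replicate 1 and lower on replicate 2, and 69 the reverse. The subtilase SBT4.12 stood at 3.54 and -4.19, with a second probe at 1.68 and -2.88. TIP2;3, itself a root marker, and the unnamed loci At3g05950 (4.38 and -3.20) and At4g22212 (4.05 and -3.17) ran the same way. PCC1, a gene known to follow both pathogens and the clock, ran the other way in all 3 of its probes (-2.89 and 3.11, with -2.95 and -3.1 on replicate 1 and 3.0 and 2.97 on replicate 2 for the other two).

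Some loci were measured in 1 condition only. At 77 loci the Al-treated signal was well above background on both arrays and the untreated signal on neither, and for 52 of these the bound on the mean induction was 2-fold or more, and for 40 it was so on each array alone. On each array the bound sets the Al-treated signal against the higher of the dim signal and the lowest signal well above background, and the mean is taken over both arrays on the log2 scale. That lowest signal is no strict ceiling for dim ones, so the bounds are approximate. It was 27.5 for untreated plants of replicate 1, where At1g17310 had 34.5 and was not well above background. The mean bound of At1g17310 was 52.1-fold (20.4-fold on replicate 1 and 133-fold on replicate 2) and that of At5g38910 31.9-fold (6.08-fold and 167-fold), so both rested mostly on replicate 2. The mean bound was 23.3-fold for At3g10430 (17-fold and 31.2-fold), 19.9-fold for At3g56891 (9.69-fold and 41.0-fold) and 19.4-fold for the purple acid phosphatase PAP20 (9.74-fold and 38.7-fold). The reverse held at 27 loci, of which 9 had a mean bound of 2-fold or more, but only At3g36659 had it on each array, with a mean bound of 3.78-fold lower (3.39-fold and 4.21-fold). These bounds have no limma adjusted p under 0.05.

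Loci that lie next to each other in the annotation were sometimes called together, with 28 such runs among the induced and 20 among the repressed loci. How many runs loci called at random would give was not worked out, so these counts are description only. Besides the GSTU and UGT73 groups, the induced runs held At3g22235 with At3g22240 and At1g51330 with At1g51340. The repressed runs held FRO6 with FRO7, ferric reductases of the shoot, the NDH subunit PnsB2 (-1.69 and -1.15) with AMT1;2, and 4 loci from At5g44572 to At5g44578. Where such neighbours are copies of one another, their probes may read the same transcript.

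The same loci on the arrays of the AvSAMS1 line are given side by side only. Of 473 Col-0 induced loci also measured there, 9.30% were past 2-fold up on the line's replicate 1 and 75.5% on its replicate 2, against 11.4% and 5.80% of all loci. On the line's replicate 1, 36.6% of the same 473 loci were past 2-fold down. Of 340 Col-0 repressed loci 16.8% were past 2-fold down on the line's replicate 1 and 48.2% on its replicate 2, against 10.4% and 3.68% of all loci. On the line's replicate 1, 18% of these 340 were past 2-fold up, and their median there was 0.22. HAK5 itself stood at -0.15 and 8.01 in the line. Replicate 2 of both lines was hybridised on 1 slide, whereas each replicate 1 array lay on a slide of its own. The labels also put the line's untreated plants at day 0 in replicate 1 and at day 2 in replicate 2. Replicate, slide and day of the untreated plants therefore cannot be told apart. A test of the difference between the lines gave 0 probes with an adjusted p under 0.05 in limma (smallest adjusted p 0.999).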

How the data were processed

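Two-colour Agilent arrays of Al-treated (Cy5) and untreated (Cy3) plants were used, 2 of Col-0 and 2 of the AvSAMS1 line. The authors extracted the images with Agilent Feature Extraction (10.7.3.1 per the submitters' processing notes, but 11.0.1.1 and 10.7.1.1 per the file headers of Col-0 replicates 1 and 2). The deposited files hold a dye-normalized log10 ratio, a p-value of a 1-array error model, and background-subtracted, dye-normalized signal intensity per spot, and the series table holds deposited log2 ratios. Here the log10 ratios were changed to log2 and spots of 1 probe were averaged, leaving out control spots and outlier spots (14 on replicate 1 and 10 on replicate 2). Probes carried 1 locus in 34447 cases, several in 38 and none in 9118. Symbols came from RefSeq by locus tag.

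A locus counted as induced or repressed when its log2 ratio was at least 1 in size on both arrays. The 15 loci with the largest smaller-of-both value in each direction, the 5 leading opposite loci and up to 6 members of each list were named, with ALMT1, STOP1, ALS3, HAK5, PHT1;2 and RBCS1A. Other genes and families were picked after their values were seen. The members and lists were chosen with earlier results of these data known. limma 3.58.1 (R 4.3.3) fitted 1 coefficient per line over all 4 arrays (2 residual degrees of freedom), two-sided, with Benjamini-Hochberg adjustment, on probes that 1 channel or both showed well above background on 2 or more arrays, and was tested on simulated data. Alternatives were normexp (offset 50) on median signals, with loess or median centring, the series table, other filters and folds, a replicate block, and single arrays left out. The labels number experiments 1 and 2, and deviations of same-numbered arrays correlated at 0.47, so the number was read as a pairing. The reported fit did not use this pairing, which entered only through the replicate block. For arrays the number of replicates limits the precision, and the spike-in slope was 0.843 on replicate 1 and 0.889 on replicate 2. Promoter motifs were not analysed here.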

Additional observations from a re-analysis of the deposited data

Results flagged for a closer look

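PHT1;4, a phosphate transporter, was higher in Al-treated Col-0 on both arrays (1.04 and 1.25) and lower in Al-treated plants of the AvSAMS1 line on both (-0.65 and -0.39), a difference of the line minus Col-0 of -1.67. NATA1, an acetyltransferase of the jasmonate list, showed the same pattern (2.58 and 4.54 in Col-0, -0.95 and -0.41 in the line), a difference of -4.24. Both were picked out because every array of one line moved one way and every array of the other the opposite way. How many loci do so was not counted, and the pattern is not particular to these genes. EXLB1 showed it as well (3.68 and 1.84 in Col-0, -0.49 and -0.74 in the line). At1g64625 showed the reverse (-1.05 and -1.27 in Col-0, 0.88 and 0.21 in the line). The test of the difference itself in limma gave an adjusted p of 0.999 for PHT1;4 and NATA1.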

How the results depend on the processing

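No probe had a limma adjusted p under 0.05 in the reported fit or under any alternative but the ordinary t statistic of both ratios against 0, which gave 1 probe (At1g02190, -0.52 and -0.52, adjusted p 0.0197). Probes at an unadjusted p under 0.05 numbered 643 without Col-0 replicate 1, 1100 without Col-0 replicate 2, 4330 when either array of the AvSAMS1 line was left out and 4743 with median centring (3781 of them higher), against 2618. The replicate block (the pairing by experiment number) gave 0 adjusted calls and 4102 unadjusted ones. It was run for the limma tests only, where it changed no call. A slide block could not be fitted. Of 694 induced, 664 repressed and 233 opposite probes, normexp with median centring left 1007, 164 and 106, and 86.0% of its calls in a common direction were induced, against 51.1%. By loci that share was 89.1% (776 induced and 95 repressed, 467 and 95 of them also in the reported sets) against 57.1%, with a median of all loci of 0.30. Loess left 519, 464 and 132 probes, and by loci 397 of 513 and 264 of 385. Without a filter on signal the counts were 1166, 1070 and 657, at 4-fold 160, 33 and 28, at 1.5-fold 1727, 2131 and 782, and with 1 probe per locus 513, 385 and 166. A single array gave 1771 to 2099 induced and 1498 to 2928 repressed probes. An alternative chosen after seeing the data, probes well above background on all 4 arrays, gave 630, 600 and 176. The medians of the auxin, cell division, clock, ethylene, flavonoid, iron, methionine and nitrogen lists changed sign with median centring, all with reported medians from -0.36 to just below 0. Of 182 named loci, 89 were past 2-fold the same way on both arrays, a size that made a change of sign unlikely in advance. These 89 kept their sign under each scaling and with the mean of all their probes. Among the others the sign of the mean turned at 3 with median centring (PYE, SEP3, SHR), and at 5 and 8 when only replicate 2 or only replicate 1 was read, among them RBCS1A (0.46), TIP2;3 (3.33) and SBT4.12 (3.54). Of these 182 values, 64 moved by more than the spread between replicates with median centring, 30 with loess and 0 with the series table. Of 22 list medians 7 moved without replicate 1 and 8 without replicate 2. The cause of these shifts was not tested. With 2 arrays per line, few degrees of freedom limit every test here.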
